A study of Homo sapiens with 36 samples.

Results

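RNA from Jurkat cells collected on day 6 after lentiviral transduction was compared with RNA collected on day 5, over all genes and over both guide RNAs. Jurkat is a human T-lymphocyte leukaemia line. The line used here stably expressed dCas9-VP64, a Cas9 without nuclease activity that is joined to a transcriptional activator and recruited to a promoter by a guide RNA (CRISPR activation, CRISPRa). All cells of all groups carried this protein and an mCherry marker, and received a guide vector followed by 3 days of puromycin selection. The groups were sgControl on day 5, sgControl on day 6, sgRELA on day 5 and sgRELA on day 6, with 3 biological replicates each; sgRELA targets RELA, the gene of the NF-kB subunit p65, and sgControl is labelled non-targeting. Members were all libraries labelled day 5 or day 6, 24 of 36 in the series. Adding the 2 library replicates of each RNA gave 12 RNA samples of 18, 6 on day 6 and 6 on day 5. Each guide name stands for a single guide sequence in the labels, and no untransduced or uninfected cells were analysed here. The labels name no harvest, extraction or sequencing batch, so anything that followed the harvest day cannot be told apart from the day itself.

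Several stress programmes with well-known regulators are read out in the groups of genes below. The heat shock response is driven by the factor HSF1, which binds heat shock elements and raises cytosolic chaperones when unfolded proteins accumulate. The unfolded protein response of the endoplasmic reticulum (ER) works through ATF6, IRE1 with XBP1, and PERK; the ATF6 and XBP1 arms raise chaperones of the ER lumen, while PERK shares ATF4 with the wider integrated stress response to amino acid shortage. Hypoxia-inducible factor (HIF) raises glycolytic enzymes and regulators of mitochondria. Proliferating leukaemia cells keep high levels of replication, mitosis and ribosome synthesis genes, in part through MYC and E2F factors.

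The 24 libraries held 7586205 to 16124473 counts, and the 12 RNA samples held 21943451 to 29503934 on day 5 and 18769530 to 22147753 on day 6. Between 31086 and 32280 genes had a count on day 5 and between 31969 and 32809 on day 6. Replicates of a group differed beyond counting noise, with a chi-square per degree of freedom of 10.8 to 24.9. The libraries started from 100 pg of RNA, and the coefficient of variation common to all tested genes was 36.9%. In sgControl, library 1 of day 5 replicate 2 and library 1 of day 6 replicate 1 had few detected genes, and counts without these 2 libraries are given with the main counts. RELA stood at 31.6, 39.8 and 29.7 CPM (counts after scaling for sequencing depth) in the sgControl samples of day 5 and at 31.6, 20.4 and 21 CPM on day 6. In sgRELA it stood at 323, 267 and 304 CPM on day 5 and at 226, 188 and 197 CPM on day 6. Every sgRELA sample thus lay above every sgControl sample on both days. All 17 T-cell markers passed the filter on low counts, with a summed level of 3212 to 3643 CPM on day 5 and 3405 to 4242 CPM on day 6. Summed levels stayed at or below 60.9 CPM for 6 B-cell markers, 20.4 CPM for 6 NK-cell markers, 15.7 CPM for 6 fibroblast markers, 4.5 CPM for 8 myeloid markers, 1.71 CPM for 6 epithelial markers and 0.764 CPM for 6 erythroid markers. The defining genes HBB, HBA1, HBA2, HBG1, COL1A2, LUM, EPCAM and KRT5 had no count in any of the 12 samples.

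Of 25825 genes tested, 4239 (16.4%) were called at an adjusted p under 0.05 by edgeR's quasi-likelihood test, 1765 higher on day 6 (6.83%) and 2474 lower (9.58%). Changes past 2-fold were found for 358 genes that were higher (1.39%) and 169 that were lower (0.654%), 527 in all (2.04%). The median log2 fold change of all tested genes was 0.04. The split between higher and lower depends on scaling: with total counts alone it was 2266 higher and 1798 lower, with upper quartile factors 2148 and 1878, and with DESeq2's size factors 1821 and 2381. Under total counts the median of all genes moved to 0.11, so log2 differences of about 0.1 or less carry no direction of their own. Without the 2 libraries with few detected genes, 4412 genes were called, 1784 higher and 2628 lower. The fold changes below come from the TMM-scaled fit, and a level in CPM is also TMM-scaled. Levels refer to bulk RNA, in which fewer cells expressing a gene and less of its RNA per cell cannot be told apart. Among protein-coding genes, 1084 of 14040 were higher and 2266 lower, with a median log2 change of -0.03. Among long non-coding RNAs, 417 of 4813 were higher and 90 lower, with a median of 0.25. More genes were detected on day 6 although its samples held fewer counts, and the part this had in the non-coding calls was not tested.

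Both guides showed the day difference. In sgControl alone 2085 genes (8.07%) were called, 785 higher (3.04%) and 1300 lower (5.03%), and in sgRELA alone 1538 (5.96%), 575 higher (2.23%) and 963 lower (3.73%). Of the 2085 genes called in sgControl, 2025 (97.12%) had the same sign in sgRELA, against 68.43% of all tested genes. There 964 of them were also called, and their median change was 0.45 log2 units in the same direction against 0.62 in sgControl. Of the 1538 genes called in sgRELA, 1505 (97.85%) had the same sign in sgControl, with a median of 0.53 there against 0.62. The 964 genes called in both were 46.2% of the sgControl list and 62.7% of the sgRELA list, and none of them had opposite signs. All 4239 genes called over both guides had the same sign in each, which follows in part from how they were called. The samples of the 2 guides are separate on both days, so neither estimate shares samples with the other. Across the 10523 genes with a mean of at least 10 CPM, the 2 sets of log2 changes had a Pearson r of 0.782 and a Spearman rho of 0.755; genes are not independent replicates. The test of the difference itself, the guide by day interaction, called 0 genes by edgeR and 5 by DESeq2. By edgeR, 1134 of 25825 genes had an unadjusted p under 0.05, and the smallest adjusted p was 0.395. With no gene differing, a share of about 0.05 would pass that threshold, which is more than was found. The genes with the smallest interaction p were FOSB, an AP-1 subunit, and INKA2, an inhibitor of the kinase PAK4. FOSB changed by -0.84 in sgControl and 2.15 in sgRELA (unadjusted p = 3.17e-05); its day 6 levels were 2.4, 2.34 and 1.35 CPM in sgControl and 18.4, 17.5 and 5.75 CPM in sgRELA. INKA2 changed by 1.30 in sgControl and -0.56 in sgRELA (unadjusted p = 3.66e-05). Both carried an adjusted interaction p of 0.395.

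**Figure D1:**
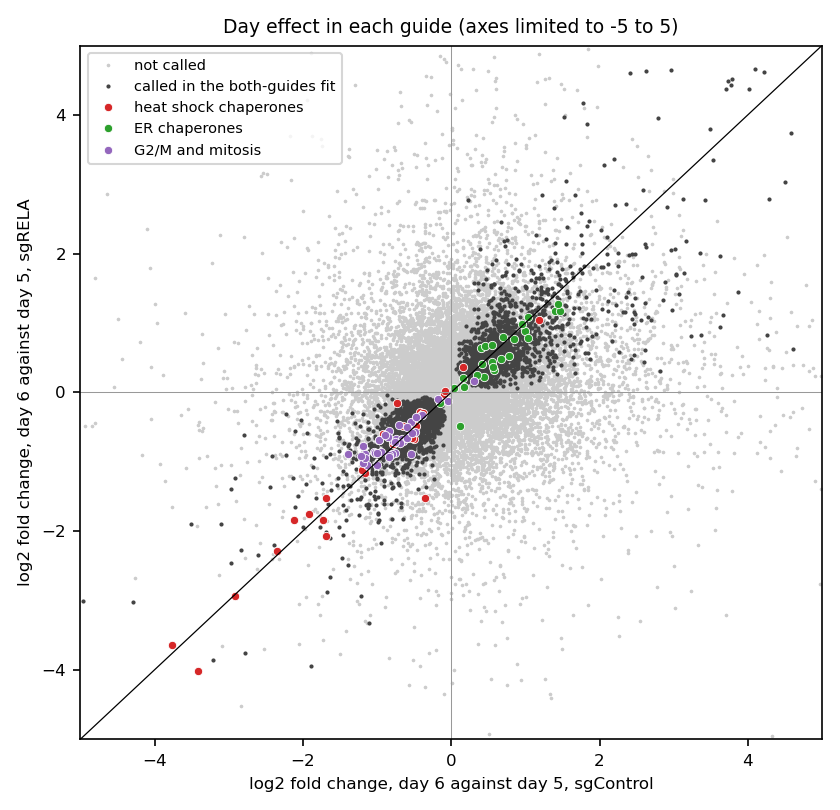
Log2 fold change of day 6 against day 5 in sgControl (x axis) and sgRELA (y axis) for each tested gene. Dark points are the 4239 genes called in the fit over both guides, coloured points are members of 3 gene lists, and the line marks equal change. Axes stop at 5 log2 units in each direction; 197 genes lie outside. Called points and list members lie in the lower left and upper right quadrants along the line, except list members near 0.

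Cytosolic heat shock genes had the lowest median of the 31 gene lists read in the fit over both guides. Within a guide the lowest was G2/M in sgControl (-0.80 against -0.79 for heat shock) and glycolysis in sgRELA (-0.76 against -0.74). Of 25 chaperones, co-chaperones and regulators tested, 18 fell and 0 rose, with a median log2 change of -0.77 against 0.04 for all genes. The list also holds the mitochondrial HSPD1 and HSPE1 and the ER chaperone SERPINH1. HSP90AA1 encodes the inducible form of the chaperone HSP90. Its level was 1824 to 2271 CPM on day 5 (median 2006) and 341 to 451 CPM on day 6 (median 418). The 6 samples of each day did not overlap, and the level was 4.98-fold lower on day 6 (log2 -2.32 ± 0.07 SE, adjusted p = 6.8e-18). For the 8 genes per direction named by the smallest p over all genes, lack of overlap was a condition, so it is no separate evidence. It held for 8.16% of all tested genes. DNAJB1, an HSP40 that hands clients to HSP70, went from 585 to 922 CPM on day 5 (median 786) to 89.5 to 121 CPM on day 6 (median 96.7). That was 7.62-fold lower, without overlap (adjusted p = 1.48e-17). HSPA1B, an inducible HSP70, stood at 43.3 to 66.2 CPM on day 5 (median 56.6) and at 2.88 to 6.05 CPM on day 6 (median 4.18), which was 13-fold lower (adjusted p = 9.74e-15). Its near-identical neighbour HSPA1A, chosen after its values were seen, had the same fitted change, log2 -3.70 ± 0.33. The authors' counting could split reads between these copies, so the level of each is uncertain.

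**Figure D2:**
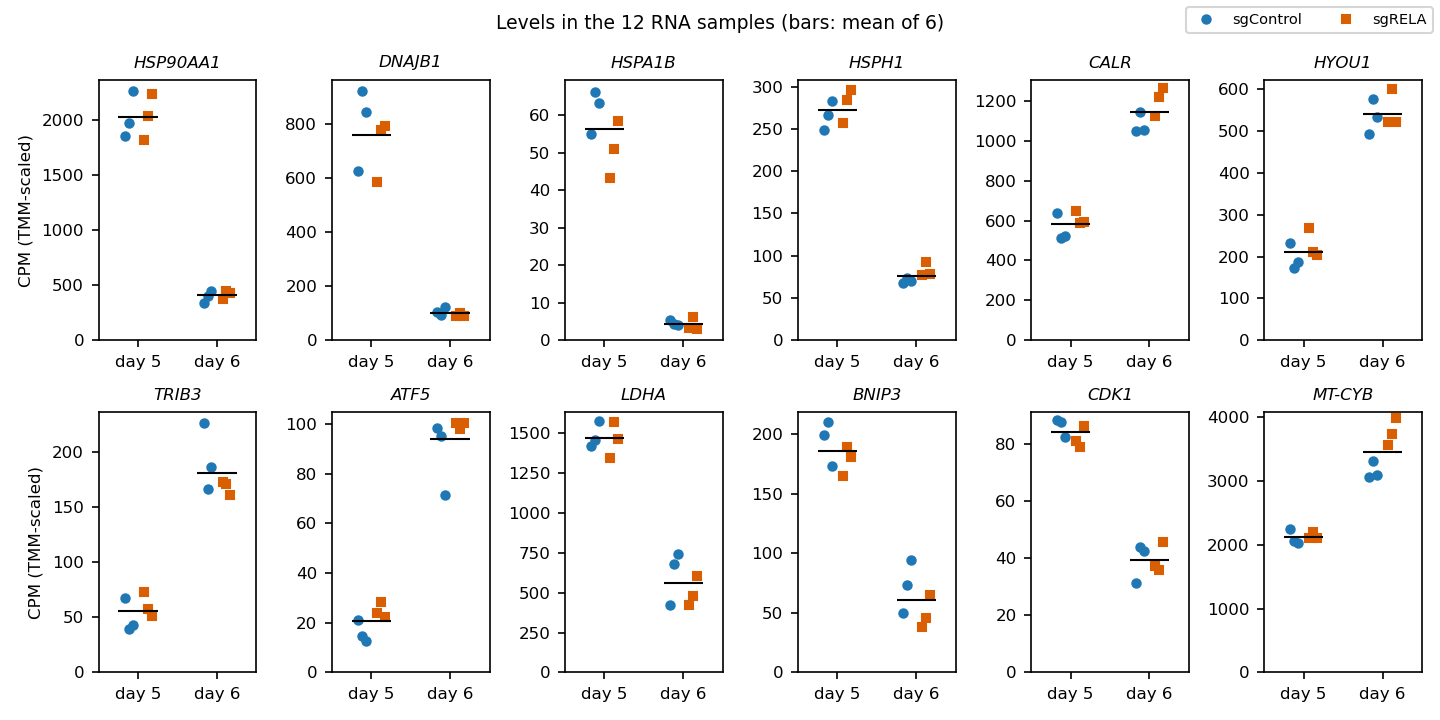
TMM-scaled CPM (y axis, from 0, a separate scale for each gene) of 12 genes on day 5 and day 6, with each point an RNA sample (circles sgControl, squares sgRELA) and each bar the mean of 6 samples. For each of the 12 genes the 6 samples of day 6 lie wholly above or wholly below the 6 of day 5. For all but LDHA, BNIP3 and CDK1 this was a condition for naming the gene.

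Most partners of these chaperones were also lower. HSPH1, a nucleotide exchange factor of HSP70, stood at 249 to 296 CPM on day 5 (median 275) and at 67.1 to 92.7 CPM on day 6 (median 75.3), 3.58-fold lower. CHORDC1, an HSP90 co-chaperone, went from 221 to 275 CPM (median 259) to 61.3 to 89.8 CPM (median 72.6), 3.44-fold lower. HSP90AB1, the constitutive HSP90, and HSPD1, the mitochondrial chaperonin, were each 2.24-fold lower. None of these 4 genes had overlapping days, which was a condition for naming them. Adjusted p-values of the 4 were 1.6e-15, 2.93e-14, 4.46e-13 and 7.3e-13 in that order. HSPE1, the partner of HSPD1 that shares its promoter region, was 3.04-fold lower, and the abundant HSPA8 was 1.28-fold lower. HSPE1 and HSPA8, like BAG3 and STIP1 below, were chosen after their values were seen. BAG3, which links HSP70 to autophagy, fell by 0.76 on the log2 scale. HSF1 fell by 0.59 and HSF2 by 0.57. The 7 members that were not called include STIP1 at -0.03, DNAJA1 at -0.07 and DNAJA4 at 1.12 (adjusted p = 0.18). DNAJA4 lay near the floor, with means of 0.68 CPM on day 5 and 1.48 CPM on day 6. The list's median was -0.79 in sgControl and -0.74 in sgRELA, and 24 of the 25 members had the same sign in both.

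The control sequences of these genes are shown because HSF1 is the textbook regulator of this list. The heat shock element was searched as GAANNTTCNNGAA on both strands, in RefSeq promoters of 300 bases from 250 before to 50 after a transcription start (GRCh38.p14). It was found for 6 of the 16 lower members that have an entry, HSP90AA1, CHORDC1, HSP90AB1, HSPD1, SERPINH1 and HSPA8, and for 1 of the 5 not called, DNAJA1. It occurs in 0.608% of all 27305 genes with an entry and in 0.49% of all 35116 windows. The 250 bases before the start are given 5′ to 3′ for the 3 lower members with the smallest adjusted p that hold it, with each match in capitals. They are HSP90AA1 (chr14:102087045-102087294, minus strand), CHORDC1 (chr11:90223050-90223299, minus strand) and HSP90AB1 (chr6:44247693-44247942, plus strand).
HSP90AA1: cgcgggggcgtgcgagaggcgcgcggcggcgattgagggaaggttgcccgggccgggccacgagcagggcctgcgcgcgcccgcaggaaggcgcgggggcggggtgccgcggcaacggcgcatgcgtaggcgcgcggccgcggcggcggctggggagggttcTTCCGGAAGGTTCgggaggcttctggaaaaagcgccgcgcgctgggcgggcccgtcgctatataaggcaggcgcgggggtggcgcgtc
CHORDC1: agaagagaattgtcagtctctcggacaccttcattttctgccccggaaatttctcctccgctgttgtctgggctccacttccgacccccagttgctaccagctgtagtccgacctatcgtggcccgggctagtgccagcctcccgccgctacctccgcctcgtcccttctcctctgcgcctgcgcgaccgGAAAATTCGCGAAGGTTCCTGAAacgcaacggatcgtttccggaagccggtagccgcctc
HSP90AB1: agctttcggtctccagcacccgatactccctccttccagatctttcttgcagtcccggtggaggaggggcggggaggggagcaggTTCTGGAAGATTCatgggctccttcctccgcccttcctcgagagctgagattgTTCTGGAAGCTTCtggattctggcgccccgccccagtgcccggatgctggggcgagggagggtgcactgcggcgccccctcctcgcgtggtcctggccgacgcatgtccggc
HSP90AA1 holds 1 match, from -88 to -76 relative to the start. CHORDC1 holds 3 matches that overlap between -60 and -38, which are printed as 1 run of capitals. HSP90AB1 holds 2, between -165 and -100. A match describes the letters in this window and is no measure of binding. Lists drawn up around a factor's known targets hold its site more often than all genes by how they were chosen. Here and for the elements below, the share among all genes thus does not bear on the day difference.

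Most genes of the ER list moved the other way. SERPINH1, an ER chaperone counted in the heat shock list, fell by 1.88 on the log2 scale (adjusted p = 2.81e-09). Of 25 genes of the ER unfolded protein response tested, 20 rose and 1 fell, with a median log2 change of 0.57. HYOU1, an ER HSP70-like chaperone, stood at 173 to 267 CPM on day 5 (median 207) and at 494 to 601 CPM on day 6 (median 529). It was 2.56-fold higher on day 6 without overlap (log2 1.36 ± 0.08 SE, adjusted p = 5.17e-12). CALR, the calcium-binding lectin chaperone calreticulin, went from 514 to 648 CPM (median 589) to 1049.5 to 1268 CPM (median 1136). That was 1.96-fold higher, with the same adjusted p of 5.17e-12. PDIA3, the disulphide isomerase that works with calreticulin, went from 112 to 139 CPM (median 125) to 184 to 235 CPM (median 216), 1.68-fold higher (adjusted p = 3.03e-08). All 3 genes were higher in each of the 6 samples of day 6 than in any sample of day 5. For HYOU1 and CALR this was a condition for naming them.

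Further members named here after their values were seen show the breadth of this list. CRELD2 was 2.49-fold higher, HSP90B1, the ER form of HSP90, 1.91-fold, and HSPA5, the ER HSP70 called BiP, 1.49-fold. XBP1, the factor spliced by IRE1, rose from 34 to 52.2 CPM on day 5 to 75.9 to 91.3 CPM on day 6, 1.88-fold (adjusted p = 6.13e-07). The member that fell was EDEM1, a factor of ER-associated degradation, by 0.16. DNAJB9 at -0.18, SELENOS at 0.05, ATF6 at 0.12 and DERL1 at 0.19 were not called. Every member except 1 had the same sign in both guides, with medians of 0.56 in sgControl and 0.52 in sgRELA.

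The ER stress element was searched as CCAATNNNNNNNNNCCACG on both strands in the same windows, since it is the best-known site of the ATF6 arm. It was found for 7 of the 19 higher members with an entry, CRELD2, CALR, HSP90B1, XBP1, HSPA5, CANX and PDIA6. It was found for 0 of the 3 not called and for 0 of the 1 that fell, against 0.0916% of all genes. Groups of 3 and 1 are too small to set against the higher members. The 3 higher members with the smallest adjusted p that hold it are given as above, with each match in capitals: CALR (chr19:12938359-12938608, plus strand), CRELD2 (chr22:49918384-49918633, plus strand) and HSP90B1 (chr12:103930160-103930409, plus strand).
CALR: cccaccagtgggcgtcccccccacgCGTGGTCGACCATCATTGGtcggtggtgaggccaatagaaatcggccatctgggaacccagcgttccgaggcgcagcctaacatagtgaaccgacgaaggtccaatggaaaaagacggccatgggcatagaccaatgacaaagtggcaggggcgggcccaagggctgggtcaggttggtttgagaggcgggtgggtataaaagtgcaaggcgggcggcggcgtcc
CRELD2: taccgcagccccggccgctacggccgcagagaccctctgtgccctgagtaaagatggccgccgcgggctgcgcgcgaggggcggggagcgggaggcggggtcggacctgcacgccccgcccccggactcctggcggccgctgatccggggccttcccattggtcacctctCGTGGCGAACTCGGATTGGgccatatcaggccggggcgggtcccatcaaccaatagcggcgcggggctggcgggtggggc
HSP90B1: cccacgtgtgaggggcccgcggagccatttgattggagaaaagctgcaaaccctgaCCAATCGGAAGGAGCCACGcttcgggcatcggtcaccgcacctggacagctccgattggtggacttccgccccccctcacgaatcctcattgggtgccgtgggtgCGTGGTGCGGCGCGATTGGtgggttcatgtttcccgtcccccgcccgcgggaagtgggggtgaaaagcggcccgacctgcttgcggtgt
CALR holds 1 match, from -225 to -207, and CRELD2 1, from -80 to -62. HSP90B1 holds 2 between -194 and -71. Every match in CALR and CRELD2, and 1 in HSP90B1, lies on the strand opposite to the one printed, so that the capitals there begin with CGTGG.

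Called targets of ATF4 were lower, with 1 exception. Of 27 members tested of 28, 13 fell and 1 rose, beside 9.58% and 6.83% of all tested genes. The median log2 change was -0.26. The gene that rose was TRIB3, a pseudokinase that restrains ATF4 and AKT signalling. Its level was 39.1 to 73.2 CPM on day 5 (median 54.6) and 161 to 227 CPM on day 6 (median 172), 3.27-fold higher (adjusted p = 3.76e-10). The days did not overlap, which was a condition for naming TRIB3. SLC7A11, the cystine importer, went from 80.1 to 111 CPM to 39.9 to 61.8 CPM, 1.92-fold lower (adjusted p = 6.24e-08). PHGDH, the entry enzyme of serine synthesis, was 1.60-fold lower (adjusted p = 2.33e-07). ATF3 fell by 1.07, CHAC1 by 1.01 and ASNS, asparagine synthetase, by 0.40. ATF4 itself, at -0.14, and DDIT3, at 0.39, were not called. These 5 genes were chosen after their values were seen.

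Outside these lists, ATF5 and ASS1 were 2 of the 8 called genes with the smallest p among those that rose. Whether ATF4 acts on them was not tested. ATF5, a factor translated under stress that resembles ATF4, went from 12.7 to 28.4 CPM on day 5 (median 21.8) to 71.5 to 100.3 CPM on day 6 (median 98.1). It was 4.65-fold higher, the smallest adjusted p among higher genes (3.5e-12). ASS1, which makes argininosuccinate for arginine synthesis, was 2.36-fold higher (adjusted p = 5.56e-10). The element TGATGNAA, to which ATF4 and its partners bind, was searched in members of the ATF4 list that have a promoter entry. It was found for 5 of 12 lower members, 1 of 11 not called and 0 of 1 higher member, against 4.46% of all genes. Cytosolic aminoacyl-tRNA synthetases, many of which are ATF4 targets, were also mostly lower: 13 of 20 fell and 2 rose, with a median of -0.37. WARS1, the tryptophanyl enzyme, rose from 51.4 to 82.9 CPM to 128 to 161 CPM, 2.08-fold (adjusted p = 5.37e-09). YARS1 and GARS1 were 1.56-fold and 1.5-fold lower (adjusted p = 3.29e-08 and 5.91e-07). The 2 guides' medians were -0.36 and -0.35.

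**Figure D3:**
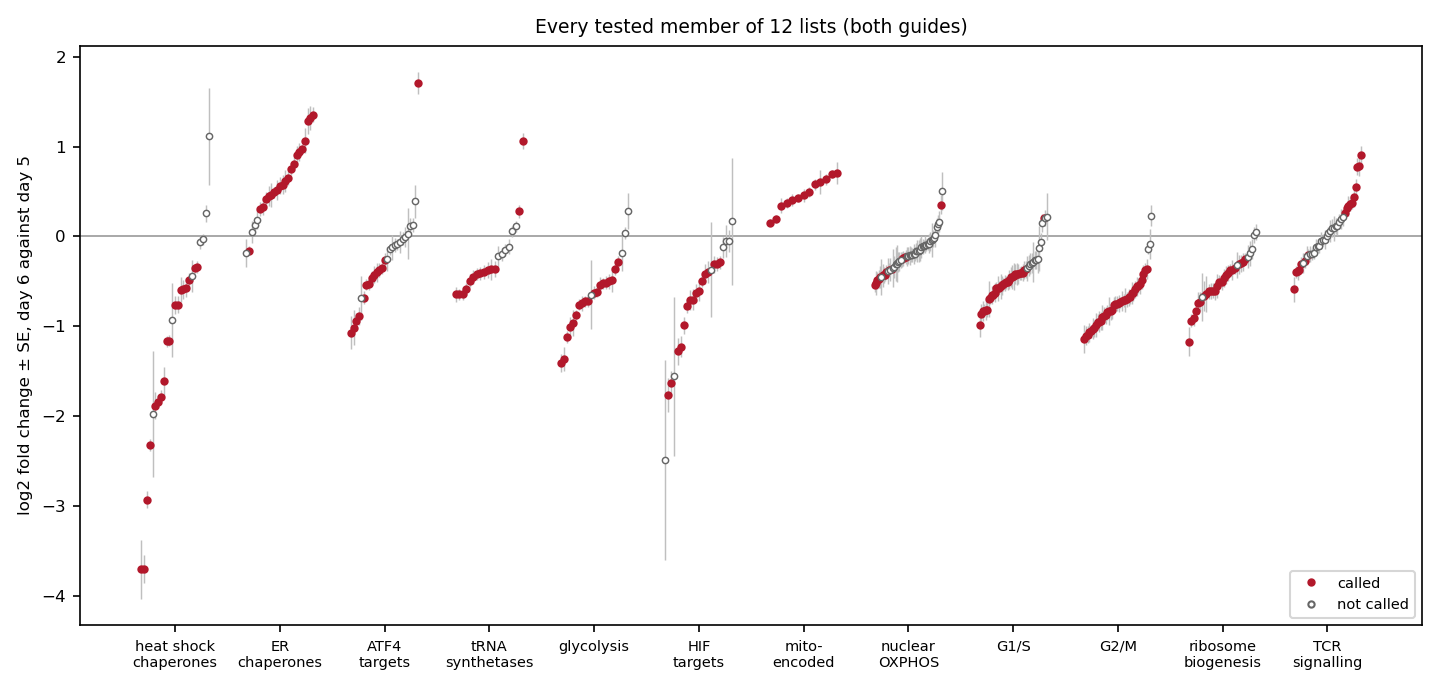
Log2 fold change of day 6 against day 5 (y axis, with SE) of every tested member of 12 gene lists (x axis), sorted within each list. Filled points passed the adjusted p of 0.05 and open points did not. Heat shock, glycolysis, HIF, cell cycle and ribosome biogenesis members lie mostly below 0, and ER and mitochondria-encoded members mostly above.

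Glycolysis and HIF targets fell together. Of 23 enzymes and transporters of glycolysis, 19 fell and 0 rose, with a median log2 change of -0.62. LDHA, which turns pyruvate into lactate, stood at 1342 to 1573 CPM on day 5 (median 1461) and at 421 to 744 CPM on day 6 (median 542). It was 2.65-fold lower without overlap (adjusted p = 2.62e-10). ENO1, enolase, was 2.17-fold lower (1377 to 1614 CPM against 557 to 829 CPM, adjusted p = 2.32e-12). PGK1, phosphoglycerate kinase, was 1.83-fold lower (adjusted p = 1.02e-10). HK2, a hexokinase chosen after its values were seen, went from 163 to 203 CPM to 43.7 to 125 CPM, 2.57-fold lower. PFKM, the muscle form of phosphofructokinase, at 0.28, SLC16A1 at 0.04, SLC2A3 at -0.19 and ALDOA at -0.65 were not called. ALDOA was counted near the floor, with means of 1.76 CPM on day 5 and 1.15 CPM on day 6, so its change is uncertain.

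Of 23 HIF targets outside glycolysis tested of 24, 16 fell and 0 rose, with a median of -0.60. BNIP3, a mitophagy receptor, went from 165 to 210 CPM on day 5 (median 185) to 37.7 to 94.6 CPM on day 6 (median 57.5). It was 3.10-fold lower (adjusted p = 3.07e-09). Its relative BNIP3L was 1.71-fold lower (adjusted p = 3.18e-08), and P4HA1, a collagen prolyl hydroxylase, 2.34-fold lower (adjusted p = 3.29e-08). None of the 3 had overlapping days. The letters ACGTG at the core of the HIF site occurred in 11 of 13 lower and 3 of 5 uncalled members with an entry; 24.9% of all genes hold them. Medians were -0.51 in sgControl and -0.76 in sgRELA for glycolysis, and -0.38 and -0.73 for HIF targets. No member was called in the interaction test: HK2 fell by 0.98 and 1.75 (unadjusted p = 0.00207) and SLC2A1, the main glucose transporter, by 0.71 and 1.31 (unadjusted p = 0.00607), with adjusted p-values of 1.

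All 13 messenger RNAs encoded by the mitochondrial genome rose, with a median log2 change of 0.46 and a range of 0.15 to 0.71. Days did not overlap for 7 of the 13, and for 8.16% of all tested genes. With the first library of each RNA alone, 4 were called, and with the second alone 13. MT-CYB, a subunit of complex III, stood at 2031 to 2241 CPM on day 5 (median 2109) and at 3070 to 3980.3 CPM on day 6 (median 3439). It was 1.62-fold higher without overlap (adjusted p = 6.15e-11), and the lack of overlap was a condition for naming it. MT-ATP6, a subunit of ATP synthase, was 1.55-fold higher (adjusted p = 3.19e-08) and MT-ND5, of complex I, 1.35-fold higher (adjusted p = 7.62e-08). Mitochondrial counts took 7.43% to 9.29% of a sample's counts on day 5 and 8.33% to 9.87% on day 6, and the 2 ranges overlap. Nuclear copies of mitochondrial sequence can share reads with these genes. Of 53 nuclear genes for subunits of the respiratory chain and ATP synthase, 15 fell, 1 rose and 37 were not called, with a median of -0.21. Over all tested genes the shares were 9.58% lower and 6.83% higher. The number of these nuclear genes that fell was 11 with total counts and 3 with the first library of each RNA alone. ATP5F1B, the catalytic subunit of ATP synthase, went from 794 to 852 CPM to 593 to 687 CPM, 1.29-fold lower (adjusted p = 4.46e-06). ATP5F1C was 1.45-fold and SDHA, of complex II, 1.34-fold lower (adjusted p = 5.04e-05 and 7.47e-05). The nuclear list had medians of -0.29 in sgControl and -0.13 in sgRELA.

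Cell cycle genes fell in both guides. Of 42 cyclins, kinases and spindle factors of G2 and mitosis, 39 fell and 0 rose, with a median log2 change of -0.75, and all 42 had the same sign in both guides. CDK1, the mitotic kinase, stood at 78.9 to 88.2 CPM on day 5 (median 84.3) and at 31.4 to 45.5 CPM on day 6 (median 39.7). It was 2.13-fold lower without overlap (adjusted p = 1.16e-08). CENPF, a kinetochore protein, was 2.08-fold lower (adjusted p = 6.15e-11), and MKI67, the proliferation marker Ki-67, 1.66-fold lower (adjusted p = 9.22e-09). Days did not overlap for 38 of the 42 genes, against 8.16% of all tested genes. BUB3 at -0.14, CDC25C at -0.08 and CDCA3 at 0.23 were not called. The letters TTTGAA, the cell cycle homology region of late cell cycle promoters, occurred in 23 of 33 lower and 2 of 2 uncalled members with an entry. Of all genes with an entry, 18.2% hold them.

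Of 46 genes of G1/S and DNA replication, 32 fell and 1 rose, with a median of -0.45. MCM2 and MCM4, subunits of the replicative helicase, were 1.77-fold and 1.76-fold lower (adjusted p = 2.77e-08 and 7.18e-08). RRM1, of ribonucleotide reductase, was 1.61-fold lower (adjusted p = 5.27e-08). The member that rose, CDK6, by 0.20, is the partner of D-type cyclins; CCND2 at 0.22 and CCND3 at 0.20 were not called. Replication-dependent histone genes were mostly not called: 5 of 36 tested of 45 fell and 1 rose, with a median of -0.24. Of all tested genes 9.58% fell and 6.83% rose. H2BC17, H2BC7 and H2AC6 were 1.75-fold, 1.5-fold and 1.26-fold lower (adjusted p = 0.0223, 0.0264 and 0.0339), with overlapping days. These 3 histone calls were lost in 8, 8 and 11 of 22 alternative settings. Histone genes are close copies of each other, so the level of each is uncertain.

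Genes of ribosome synthesis were also mostly lower. Of 32 nucleolar factors and MYC, 25 fell and 0 rose, with a median of -0.48. DDX21, a nucleolar helicase, was 1.91-fold lower (adjusted p = 3.55e-09) and TCOF1, a factor of ribosomal RNA transcription, 1.87-fold lower (adjusted p = 5.43e-08). MYC stood at 55.3 to 61.2 CPM on day 5 (median 58.8) and at 26.1 to 38.7 CPM on day 6 (median 33.4), 1.78-fold lower without overlap (adjusted p = 1.49e-06). The ribosomal proteins themselves changed little: 10 of 77 fell and 2 rose, beside 9.58% and 6.83% of all tested genes, with a median of -0.07. RPL4 was 1.19-fold and RPS2 1.23-fold lower (adjusted p = 0.000232 and 0.000658).

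Folate one-carbon and polyamine metabolism had 10 of 20 genes lower and 0 higher, with a median of -0.34. For this and the next 2 lists, the shares over all tested genes were 9.58% lower and 6.83% higher. MTHFD2, the mitochondrial folate dehydrogenase, was 1.45-fold lower (adjusted p = 9.99e-07) and MTHFD1L 1.57-fold lower (adjusted p = 8.08e-06). Of 35 proteasome subunits, 21 fell and 0 rose, with a median of -0.28. PSMA1, of the core ring, was 1.56-fold lower (adjusted p = 1.72e-06), and PSMD2 and the activator PSME4 were each 1.34-fold lower (adjusted p = 6.19e-06 and 0.000129). Of 30 SR proteins, hnRNPs and CLK kinases, which act in splicing, 12 fell and 2 rose, with a median of -0.17. HNRNPD was 1.43-fold, RSRC2 1.58-fold and HNRNPU 1.23-fold lower (adjusted p = 3.1e-05, 4.6e-05 and 8.11e-05).

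Sterol and antioxidant genes fell in smaller numbers. Of 32 genes of cholesterol synthesis, uptake and export, 11 fell and 1 rose, with a median of -0.22. Beside this and the antioxidant list, 9.58% of all tested genes fell and 6.83% rose. FDFT1, squalene synthase, went from 269 to 337 CPM to 189 to 209.7 CPM, 1.54-fold lower (adjusted p = 8.09e-08). HMGCS1 was 1.53-fold lower (adjusted p = 3.88e-06). The element TCACNCCAC, bound by the sterol factor SREBP, was found for 1 of the 6 lower members with a promoter entry, SREBF2, against 1.39% of all genes. Of 27 NRF2 targets and antioxidant genes tested of 29, 6 fell and 0 rose, with a median of -0.17. TKT, the pentose phosphate enzyme transketolase, was 1.93-fold lower (adjusted p = 2.8e-09) and SOD1, superoxide dismutase, 1.39-fold lower (adjusted p = 8.56e-05).

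**Figure D4:**
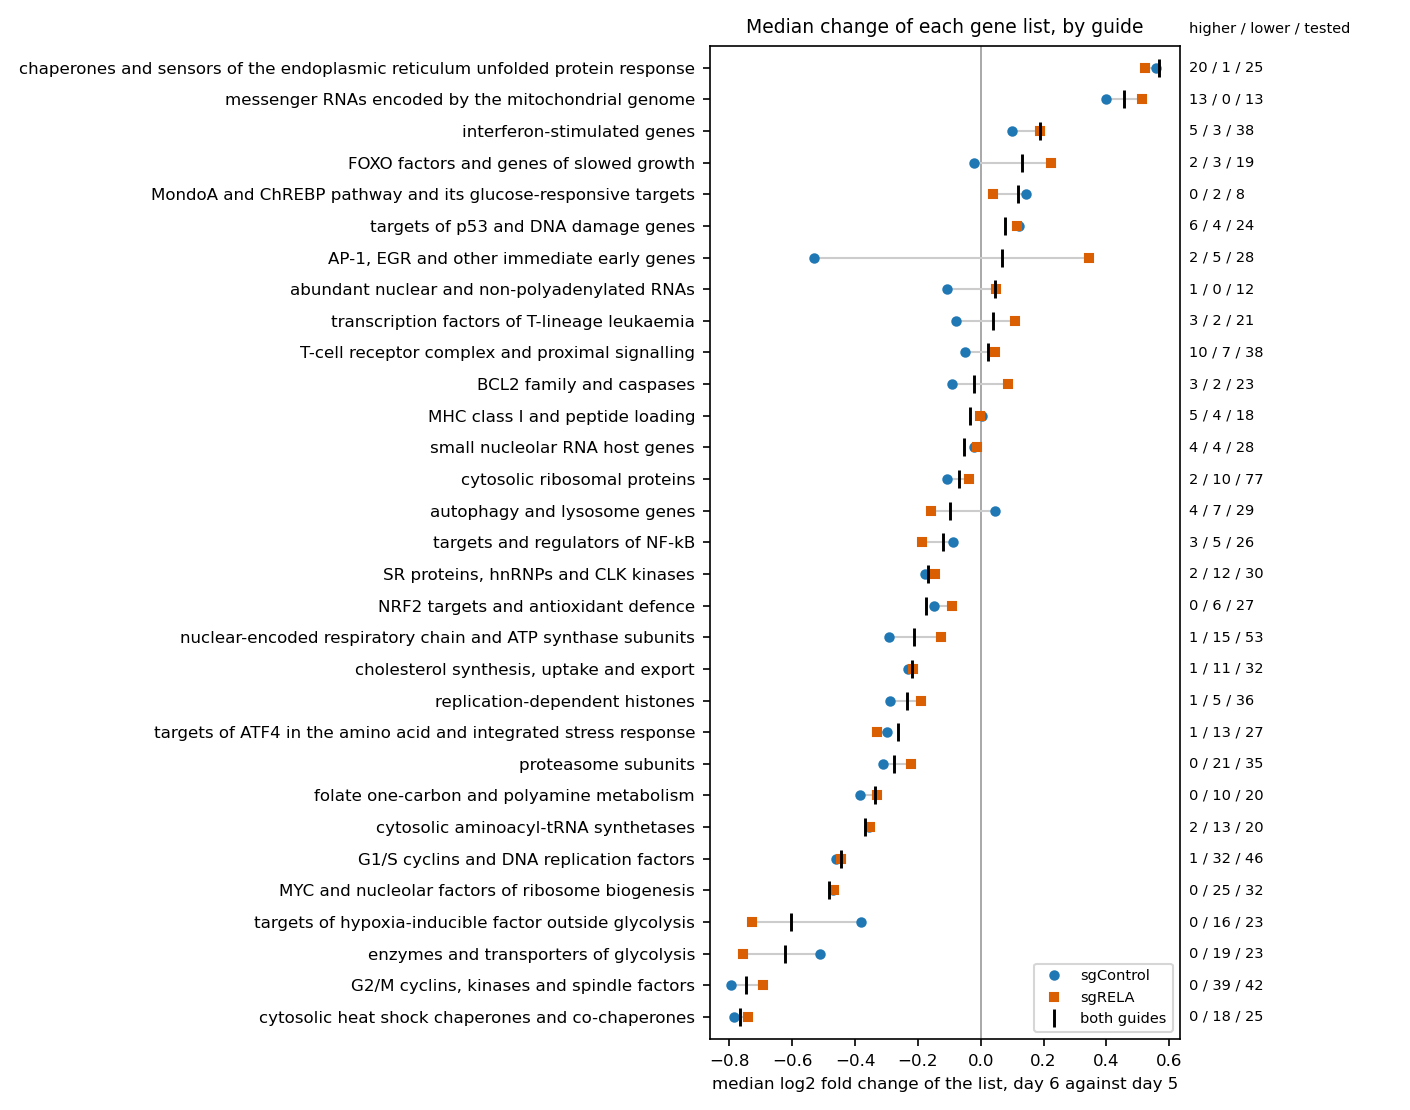
Median log2 fold change of day 6 against day 5 (x axis) of the tested members of each of 31 gene lists (y axis), for sgControl (circles), sgRELA (squares) and both guides (bars). The numbers at the right give members higher, lower and tested. By the bars, the heat shock list lies lowest and the ER list highest; G2/M lies lowest by the circles and glycolysis by the squares. The immediate early genes show the widest gap between guides.

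Lists of survival, autophagy and quiescence genes had calls in both directions, and most members of each were not called. Of 24 p53 targets and DNA damage genes tested of 26, 6 rose and 4 fell, with a median of 0.08. TP53INP1, a p53 target that also acts in autophagy, rose from 60.8 to 77.3 CPM to 113 to 153 CPM, 1.93-fold (adjusted p = 2.52e-08). CCNG1 and MDM2, also p53 targets, were 1.38-fold and 1.31-fold lower (adjusted p = 7.61e-05 and 8.25e-05). Of 23 BCL2 family and caspase genes tested of 24, 3 rose and 2 fell, and over all tested genes 6.83% rose and 9.58% fell. BMF, a BH3-only protein that promotes apoptosis, rose from 20.7 to 35.2 CPM (median 27.9) to 50.6 to 70.7 CPM (median 58.8), 2.19-fold (adjusted p = 4.86e-07). CASP8 was 1.30-fold higher (adjusted p = 0.000681), and PMAIP1, the BH3-only protein NOXA, 1.49-fold lower with overlapping days (adjusted p = 0.00715).

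Of 29 autophagy and lysosome genes tested of 30, 7 fell and 4 rose, with a median of -0.10. Beside this and the next 2 lists, 9.58% of all tested genes fell and 6.83% rose. LAMP2 was 1.31-fold lower, and FNIP1 and its partner FLCN, which regulate mTORC1 at the lysosome, were 1.26-fold and 1.43-fold lower (adjusted p = 0.000526, 0.000955 and 0.00228). Of 19 FOXO factors and genes of slowed growth tested of 20, 3 fell and 2 rose. CDKN2D, a CDK inhibitor, was 1.56-fold higher (adjusted p = 0.00522). FOXO3, 1.20-fold lower, and SESN3, higher by 0.24 log2 units, were called at adjusted p = 0.0253 and 0.0297. Of 8 genes of the glucose-sensing pathway and its targets tested of 12, 2 fell and 0 rose, with a median of 0.12. The 2 were MLX and ARRDC3, lower by 0.36 and 0.37 (adjusted p = 0.0342 and 0.0444). The calls of FOXO3, SESN3, MLX and ARRDC3 were lost in 9, 9, 11 and 16 of the 22 alternative settings.

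Genes of the T-cell receptor and its proximal signalling also had calls in both directions, 10 higher and 7 lower of 38, with a median of 0.02. TRAC, the constant region of the receptor alpha chain, rose from 39.8 to 50.8 CPM (median 44.0) to 70 to 94.6 CPM (median 87.7). It was 1.87-fold higher without overlap (adjusted p = 2.41e-07). LCP2, the adaptor SLP-76, was 1.71-fold higher (adjusted p = 1.03e-06) and TRBC2, a beta chain constant region with a near-identical copy in TRBC1, 1.73-fold higher (adjusted p = 1.44e-05). CD4 fell by 0.59 on the log2 scale and was chosen after its values were seen. Of 21 transcription factors of T-lineage leukaemia tested of 24, TAL1 was 1.4-fold and RUNX1 1.29-fold higher (adjusted p = 1.55e-07 and 1.33e-06). MYB went from 508 to 583 CPM to 303 to 371 CPM, 1.53-fold lower (adjusted p = 5.33e-08). The list held 3 higher and 2 lower members in all, beside 6.83% and 9.58% of all tested genes. Of the 17 T-cell markers, which share members with the receptor list, 7 rose and 2 fell. S1PR3, a sphingosine-1-phosphate receptor named by the smallest p over all genes, rose from 37.9 to 50.4 CPM (median 43.5) to 112 to 125 CPM (median 114), 2.64-fold (adjusted p = 5.17e-12).

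Immediate early genes were the list on which the guides' medians lay farthest apart, -0.53 in sgControl and 0.35 in sgRELA. Of 28 members tested of 30, 5 fell and 2 rose in the fit over both guides, beside 9.58% and 6.83% of all tested genes. In the interaction test 0 were called. JUN, an AP-1 subunit, went from 14.9 to 27.0 CPM on day 5 (median 20.1) to 2.17 to 5.86 CPM on day 6 (median 4.3). It was 4.92-fold lower without overlap (adjusted p = 7.85e-09), with a log2 change of -2.39 in sgControl and -2.21 in sgRELA. KLF6 was 1.54-fold lower (adjusted p = 0.000231). Of the 28 members, 16 had the same sign in both guides.

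RELA itself fell by 0.51 on the log2 scale over both guides (adjusted p = 0.000513), by 0.47 in sgControl and 0.55 in sgRELA, with an unadjusted interaction p of 0.725. Of 26 NF-kB targets and regulators tested of 32, 5 fell and 3 rose, with a median of -0.12. Of all tested genes 9.58% fell and 6.83% rose. TNFAIP3, an NF-kB-induced inhibitor of the pathway, was 1.53-fold lower (adjusted p = 3.67e-05), REL 1.33-fold lower (adjusted p = 0.000907) and NFKBIB 1.56-fold lower (adjusted p = 0.00584). TNFAIP3 stood at 57.6, 72.5 and 67.3 CPM in sgControl and at 107, 118 and 113 CPM in sgRELA on day 5. On day 6 it stood at 37, 46.9 and 42 CPM in sgControl and at 78.8, 61.8 and 86.7 CPM in sgRELA, so the days overlap when guides are pooled but not within a guide.

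Interferon and antigen presentation genes had calls in both directions. For this and the lists that follow, the shares over all tested genes were 6.83% higher and 9.58% lower. Of 38 interferon-stimulated genes tested of 40, 5 rose and 3 fell, with a median of 0.19. IFI16, a DNA sensor, was 1.41-fold lower (adjusted p = 1.23e-05), STAT2 1.48-fold higher (adjusted p = 2.11e-05) and CMPK2 2.01-fold lower (adjusted p = 5.57e-05). Of 18 genes of MHC class I and peptide loading, 5 rose and 4 fell, with a median of -0.03. Of the 5, CALR, PDIA3 and CANX, an ER lectin 1.4-fold higher (adjusted p = 1.34e-06), also belong to the ER list, and B2M fell by 0.42. Non-coding RNAs were read in 2 lists. Of 12 abundant nuclear RNAs tested of 29, KCNQ1OT1 alone was called, 1.33-fold higher with overlapping days (adjusted p = 0.00135). Of 28 small nucleolar RNA host genes, 4 rose and 4 fell: SNHG14 was 1.43-fold higher, and SNHG17 and SNHG15 1.61-fold and 1.72-fold lower (adjusted p = 1.65e-08, 1.76e-06 and 5.83e-06). MIR223HG, the host gene of a microRNA known from myeloid cells, went from 27 to 42 CPM to 89.6 to 111 CPM, 3.00-fold higher (adjusted p = 1.9e-11). MIR223HG was one of the 8 genes that rose with the smallest p.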

How the data were processed

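Gene counts were deposited by the authors as 1 table of raw counts for 36 RamDA-seq libraries, with no normalization. RamDA-seq amplifies total RNA with random primers and covers RNAs with and without poly(A) tails. The submitters' processing notes name cutadapt 1.18, STAR 2.7.9a and the build GRCh38. The counting tool, annotation, strand setting and handling of reads with several matches are not given in the sources used here, so counts of overlapping, antisense and near-identical genes are uncertain. No molecular identifiers are mentioned.

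The 2 libraries of each RNA were added. The quasi-likelihood test of edgeR 4.0.16 (R 4.3.3) was applied after TMM scaling (factors 0.972 to 1.06) and filterByExpr at a minimum count of 10. P-values were adjusted by Benjamini-Hochberg over the 25825 genes tested of 74628. The model held guide and day. Effects per guide and their interaction came from a fit of the 4 group means. Standard errors were derived from the F statistic, and the method was tested on simulated data. Alternatives were DESeq2 1.42.0, other scalings, filters, thresholds and sets of libraries, and a replicate block.

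Members and lists were chosen with earlier results of these data known. Lists are described by counts and medians beside all tested genes, with no set test. Named were the 8 genes per direction with the smallest p and no overlap between days, up to 3 called members of each list with the smallest p, the 2 genes with the smallest interaction p, and RELA. All other genes were chosen after their values were seen. A few genes that this rule names are not reported here. Promoters are those of RefSeq.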

Additional observations from a re-analysis of the deposited data

Results flagged for a closer look

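Each measure was searched within the 6 samples of a day for a sample set apart from the others, by the gap to its nearest neighbour over the range of the 6. Of 100 searches 8 found one, and chance gives about 1 in 20. On day 5, replicate 1 of sgControl had a mitochondrial share of 9.29% against 7.43% to 7.81% in the other 5 samples. The same sample had a mean log2(CPM + 1) over ribosomal proteins of 8.13, against 7.87 to 7.93. On day 5, replicate 1 of sgRELA had a mean over HIF targets of 5.32 against 5.45 to 5.51. Replicate 3 of sgRELA on day 5 had a mean over the glucose-sensing list of 5 against 4.68 to 4.78. On day 6, replicate 1 of sgControl had a mean over tRNA synthetases of 6.98 against 7.08 to 7.1 and a mean over autophagy genes of 5.69 against 5.50 to 5.55. ATF5 stood at 71.5 CPM in replicate 3 of sgControl on day 6, against 95.2 to 100.3 CPM in the others. S1PR3 stood at 124.7 CPM in replicate 3 of sgRELA on day 6, against 112.5 to 116.7 CPM. For both genes, lack of overlap between the days was a condition for naming them.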

How the results depend on the processing

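Of the 94 called genes named by rule, 68 kept their call in all 22 alternative settings and none changed sign; most single losses came from the first library alone, including RELA (adjusted p = 0.403). At an adjusted p under 0.01, 2443 genes were called over both guides, 891 in sgControl and 720 in sgRELA. DESeq2 called 2536 in sgRELA and 5 in the interaction, and no filter on low counts gave 14 interaction calls. With the first library of each RNA alone, counts for both guides, sgControl and sgRELA were 850, 118 and 72. With the second alone they were 2899, 1238 and 1097, and the cause was not tested. Lists lost calls too. With the first library alone, members called lower were 30 for G2/M, 10 for G1/S, 8 for ribosome synthesis and 2 for the proteasome. They were 15 for heat shock, 13 for glycolysis, 8 for HIF targets, 6 for tRNA synthetases and 5 for ATF4 targets. For cholesterol, splicing and ribosomal proteins they were 3, 1 and 0. Leaving out each RNA sample in turn gave 3511 to 3948 calls over both guides, 1228 to 1896 in sgControl (lowest without day 5 replicate 3) and 875 to 2130 in sgRELA, with 0 to 1 in the interaction. In sgRELA the count moved by over 1.5 times without its own day 5 replicates 2 and 3 (974 and 892) or day 6 replicates 1, 2 and 3 (923, 875 and 960). The median of the small nucleolar RNA host genes changed sign, from -0.05 to 0.00998 with total counts and 0.062 with the second library alone; the cause was not tested. Medians near 0 also changed sign for 6 other lists: abundant nuclear RNAs in 12 settings, BCL2 family in 7, MHC class I in 4, T-cell receptor in 3, immediate early genes in 2 and leukaemia factors in 1. Medians of the other 24 lists, among them heat shock, ER, glycolysis, HIF and cell cycle, kept their sign in every setting. The replicate block gave 3897, 1638, 1175 and 0 calls for both guides, sgControl, sgRELA and the interaction. Same-numbered samples did not deviate together (r -0.14 to 0.05 over 6 pairs), so the numbers were not taken to pair samples.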

Other observations

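Some further genes and families, all chosen after their values were seen, are given as values. HSPA6, a strictly inducible HSP70 outside the heat shock list, stood at 39.1 to 80.5 CPM on day 5 (median 55.1) and at 0.757 to 6.01 CPM on day 6 (median 2.25). It was 21.1-fold lower by edgeR (adjusted p = 8.24e-11). Its log2 change was -3.76 in sgControl and -5.24 in sgRELA, with an adjusted interaction p of 1. CACYBP, a co-chaperone of HSP90, was 2.09-fold lower (adjusted p = 2.62e-10). In the other direction, DNAJB5, an HSP40 outside the heat shock list, was 1.62-fold higher (adjusted p = 0.00119). Of 9 genes of the cytosolic chaperonin TRiC, 8 fell, with a median log2 change of -0.42 and CCT8 lowest at -0.79. Among ER proteins outside the ER list, PPIB, a prolyl isomerase, was 2.23-fold higher (adjusted p = 4.31e-07), CNPY2 1.79-fold (adjusted p = 2.73e-05) and CREB3L2, a membrane-bound factor of the secretory pathway, 1.95-fold (adjusted p = 2.8e-08). Coat proteins of ER to Golgi transport had 1 of 18 higher and 2 lower, and the translocon with signal peptidase 3 of 14 higher and 0 lower. Over all tested genes the shares were 6.83% higher and 9.58% lower.

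Nuclear transport and mitochondrial translation had many lower members. Of 21 nucleoporins 17 fell and 0 rose, with a median of -0.39, and of 20 importins and exportins 13 fell and 1 rose, with XPO1, the main exportin, at -0.75. Of 77 mitochondrial ribosomal proteins 27 fell and 1 rose, with a median of -0.28. Of 13 SMC and condensin genes 10 fell, with SMC4 lowest at -1.02. Among zinc finger genes named ZNF, 25 of 430 rose and 42 fell, with a median of -0.02, beside 6.83% and 9.58% of all tested genes. Non-coding classes named by their symbols lay on the other side: 65 of 508 LINC genes rose and 7 fell (median 0.37), 110 of 925 antisense genes rose and 14 fell (median 0.26), and 40 of 396 divergent transcripts rose and 3 fell (median 0.29). Since the strand setting is not given, reads of an antisense gene and of its partner cannot be told apart. Among cell surface genes, CCR9, a chemokine receptor of thymocytes, rose from 15.8 to 27.2 CPM to 38.4 to 61.8 CPM, 2.40-fold (adjusted p = 3.07e-07), and LAIR1, an inhibitory receptor, 1.93-fold (adjusted p = 3.02e-08).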
